A study of Homo sapiens with 12 samples.

Results

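The genes described are PDE3A, 8 further cyclic nucleotide phosphodiesterases (PDE3B, PDE4A, PDE4B, PDE4D, PDE5A, PDE7A, PDE8A and PDE10A) and SLFN12, whose product binds PDE3A. They are 10 of the 58381 genes in the count table and were found by matching their Ensembl identifiers to these symbols. PDE3A was selected on its counts in Hs578T, which were higher in CD44 KO than in CD44 WT cells, so its values in that line are a description and carry no test. All 10 genes passed the filter on low counts, PDE3A only through the Hs578T CD44 KO libraries.

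Hs578T and MDA-MB-231 are triple negative breast cancer cell lines. In each line the question was which genes depend on CD44, the cell surface receptor for hyaluronan, and 3 libraries per group were made from CD44 WT and CD44 KO cells. Both kinds of cell carried a doxycycline-inducible Cas9 delivered by lentivirus and selected with puromycin. CD44 KO cells received guide RNAs against CD44 exons 1 and 5 and control cells received transfection reagent only, after which live CD29+ CD44- cells (CD44 KO) or CD29+ CD44+ cells (CD44 WT) were sorted as populations rather than clones. RNA was taken after a day in low serum and sequenced as stranded mRNA libraries. Nothing in the sources used here says that the replicates came from separate cultures, so p-values measure the spread between these libraries.

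Cyclic AMP and cyclic GMP are second messengers, made by adenylyl and guanylyl cyclases and read by protein kinase A, protein kinase G, EPAC proteins and cyclic nucleotide gated channels. Phosphodiesterases hydrolyse them and thereby set how long and where in the cell a signal lasts. PDE3 enzymes hydrolyse both nucleotides and are inhibited by cyclic GMP, PDE4, PDE7 and PDE8 enzymes are specific for cyclic AMP, PDE5A is specific for cyclic GMP, and PDE10A hydrolyses both. PDE3A is best known in heart muscle, platelets and oocytes, and in cancer cells small molecules of the velcrin class bring it together with SLFN12, a ribonuclease, which kills cells that hold both proteins.

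The 250 bases upstream of the gene start in the count table are shown for PDE3A, which had the largest ratio of the members between Hs578T CD44 KO and CD44 WT, and for PDE8A, the member that passed the test in MDA-MB-231. They were read from GRCh38, 5′ to 3′ on the strand of the gene, with CG dinucleotides, the sites of DNA methylation, in capitals. The PDE3A window is chr12:20368995-20369244 on the plus strand and the PDE8A window is chr15:84980190-84980439 on the plus strand.
PDE3A: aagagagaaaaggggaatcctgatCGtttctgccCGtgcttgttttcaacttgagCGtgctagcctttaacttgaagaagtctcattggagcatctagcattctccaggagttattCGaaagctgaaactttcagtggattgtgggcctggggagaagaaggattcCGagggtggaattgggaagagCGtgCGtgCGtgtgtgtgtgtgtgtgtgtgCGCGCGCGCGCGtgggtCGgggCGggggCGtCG
PDE8A: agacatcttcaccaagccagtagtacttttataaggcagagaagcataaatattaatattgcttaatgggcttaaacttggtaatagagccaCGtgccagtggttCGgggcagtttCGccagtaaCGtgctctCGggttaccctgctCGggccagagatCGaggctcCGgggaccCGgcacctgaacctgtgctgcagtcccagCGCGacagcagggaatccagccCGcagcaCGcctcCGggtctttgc

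The PDE3A window holds 18 CG dinucleotides and the PDE8A window 14, beside a median of 16 over the windows of 15834 genes tested. Over the members the number ran from 2 upstream of PDE4D to 38 upstream of PDE3B. The cyclic AMP response element TGACGTCA, which reads the same on both strands, was found in the window of no member and in 1.99% of all windows. Its shorter core, TGACG or CGTCA on the other strand, was found 5 times upstream of PDE4A and not upstream of the other members, beside 23.9% of all windows with at least 1 match. These windows follow the outermost start of each gene, and a gene can have further starts.

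Total counts per library ran from 10257586 to 19725543, and mitochondrial genes took 0.861% to 2.53% of them. CD44 fell from 507 ± 17.6 to 27.3 ± 2.06 CPM in Hs578T, where CPM is the count scaled to library size and values are mean ± SD (n = 3). In MDA-MB-231 it fell from 362 ± 1.70 to 34.2 ± 5.40 CPM, so the labels of CD44 WT and CD44 KO held in every library. CD44 does not check the replicate numbers. The mesenchymal marker VIM averaged 3862 to 6609 CPM and was called higher in CD44 KO in both lines, PGR was at 0 counts in all 12 libraries, and ESR1 averaged at most 0.928 CPM. Other line markers were well above 0, with group means of 61.9 to 94.5 CPM for ERBB2, 307 to 571 CPM for KRT8 and 374 to 631 CPM for KRT18. EPCAM differed by line, with means of at most 0.0556 CPM for Hs578T, beside 17.6 (CD44 WT) and 16.8 CPM (CD44 KO) for MDA-MB-231. CDH1 averaged at most 0.658 CPM. Of 5 markers of other cell types, 3 were tested and 1, the leukocyte gene PTPRC, was called in Hs578T, beside 7.51% of all genes. PTPRC passed the filter on low counts only through Hs578T CD44 KO, so it had to be higher there and is given as values. It was 0.369 CPM in Hs578T CD44 WT and 3.78 CPM in Hs578T CD44 KO, and ALB was at 0 in Hs578T. The summed level of the 5 ran from 15.3 to 17.7 CPM in Hs578T CD44 WT, from 21.5 to 25.0 CPM in Hs578T CD44 KO, and between 2.83 and 6.65 CPM in all MDA-MB-231 libraries. PECAM1 held the largest part of that sum in Hs578T, with means of 11.6 (CD44 WT) and 13.9 CPM (CD44 KO). RGS5 averaged 4.451 and 5.001 CPM there. Neither was called in that line (edgeR, adjusted p = 0.526 for PECAM1 and 0.733 for RGS5). What part the 5 markers had in the results below was not tested. In bulk libraries, more cells with a transcript and more of it per cell cannot be told apart.

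PDE3A went from a few counts to at least 240 per library in Hs578T CD44 KO cells. PDE3A (ENSG00000172572.6) lies on the plus strand of chromosome 12, from 20369245 to 20684381 (GRCh38, as for all positions here). In Hs578T CD44 WT it had 4, 3 and 4 counts in replicates 1, 2 and 3, and in Hs578T CD44 KO it had 241, 412 and 240. In MDA-MB-231 CD44 WT it had 1 count in replicate 1 and 0 in replicate 3 and in the library without a replicate number, and in MDA-MB-231 CD44 KO it had 1, 3 and 0. The Hs578T groups stood far apart, while the MDA-MB-231 groups overlapped at the limit of detection, where a count of 0 allows up to 3 counts in that library.

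Scaled to library size, PDE3A was at 0.277, 0.247 and 0.339 CPM in Hs578T CD44 WT and at 19.3, 25.4 and 20.5 CPM in Hs578T CD44 KO. The means were 0.288 ± 0.0467 and 21.7 ± 3.23 CPM (SD, n = 3), a fitted log2 fold change of 6.20 (standard error 0.298). From the summed counts, 893 against 11, the ratio was 77.1 with a 95% counting interval of 42.9 to 155, which covers counting error only. These values chose the gene and are not tested.

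In MDA-MB-231 the libraries held 4 PDE3A counts with CD44 KO and 1 with CD44 WT. The depth-scaled ratio was 3.45, and its counting interval ran from 0.342 to 170. The fitted log2 fold change was 1.49 (standard error 1.098), and no test is given for it, since PDE3A was fitted only because of its counts in Hs578T CD44 KO. Every adjusted p that follows comes from the quasi-likelihood test of edgeR, adjusted by the Benjamini-Hochberg method over all 15836 genes tested. At this depth a change of PDE3A among so few counts was not detectable in MDA-MB-231. A level like that of Hs578T CD44 KO, at 240 to 412 counts per library, was absent. No MDA-MB-231 CD44 KO library held more than 3 counts.

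**Figure D1:**
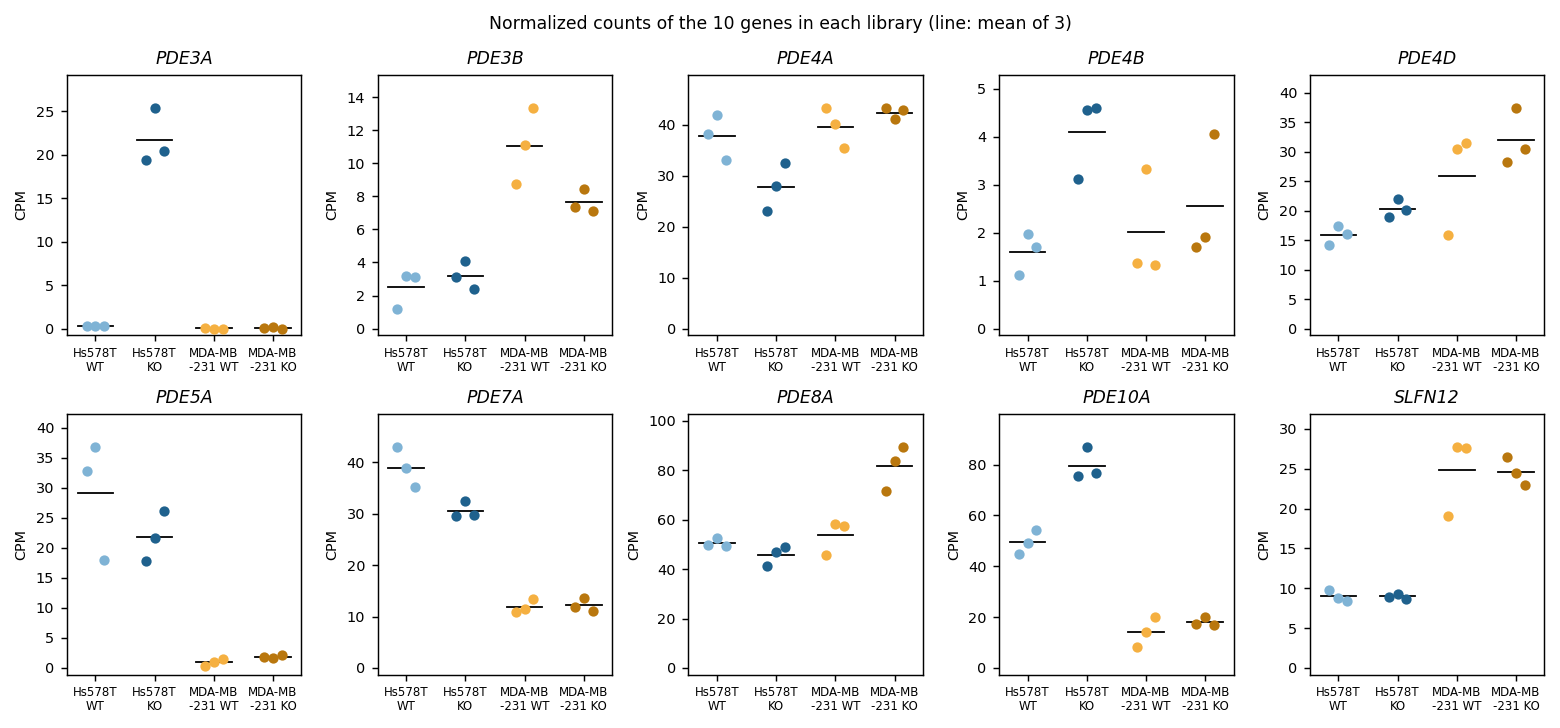
Counts scaled to library size (CPM, vertical axes, a separate scale per gene) of PDE3A, the 8 other phosphodiesterases and SLFN12 in each library (points) of the 4 groups, with the mean of 3 as a line. PDE3A stands at 19.3 to 25.4 CPM in Hs578T CD44 KO and at most at 0.339 CPM elsewhere, and PDE8A is highest in MDA-MB-231 CD44 KO.

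Of the 9 other members, 0 were called in Hs578T at an adjusted p of at most 0.01, beside 7.51% of all genes tested. At an unadjusted p under 0.05 there were 4, PDE4A, PDE4B, PDE7A and PDE10A, beside 27.4% of all genes, and DESeq2 called 1, PDE10A, beside 9.81%. For 6 of the 9, PDE4A, PDE4B, PDE4D, PDE7A, PDE8A and PDE10A, the CD44 KO and CD44 WT libraries did not overlap, beside 37.3% of all genes. In MDA-MB-231, 1 of the 9 was called, PDE8A, beside 4.62% of all genes, and the groups did not overlap for 3, PDE3B, PDE5A and PDE8A, beside 25.5%. The median log2 fold change of the 9 members without PDE3A came to -0.00 for Hs578T and 0.28 for MDA-MB-231, beside -0.00 and -0.01 over all genes tested.

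PDE3B, the second PDE3 enzyme, known for its role in insulin action in fat cells, did not follow PDE3A. PDE3B (ENSG00000152270.8, chromosome 11, 14643723 to 14872044, plus strand) ran from 1.18 to 3.21 CPM in Hs578T CD44 WT and from 2.39 to 4.07 CPM in Hs578T CD44 KO, so the groups overlapped (log2 fold change 0.40, standard error 0.318, adjusted p = 0.471). In MDA-MB-231 it was 11.1 ± 2.31 CPM in CD44 WT and 7.63 ± 0.695 CPM in CD44 KO. The CD44 KO libraries all lay below those of CD44 WT there, but the change did not pass the test (log2 fold change -0.53, standard error 0.256, adjusted p = 0.230).

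PDE4 enzymes are the targets of rolipram and related drugs. PDE4A (ENSG00000065989.15, chromosome 19, 10416773 to 10469631, plus strand) was at 38.2, 41.9 and 33.2 CPM in replicates 1, 2 and 3 of Hs578T CD44 WT and at 23.0, 27.99 and 32.5 CPM in Hs578T CD44 KO. The CD44 KO libraries lay below the CD44 WT libraries, by little between the nearest pair, and the log2 fold change of -0.44 (standard error 0.129) did not pass (adjusted p = 0.0321). It passed in 2 of 20 alternatives, at a threshold of 0.05 and with consecutive label numbers as a block (adjusted p = 0.00963). In MDA-MB-231, PDE4A was 39.6 ± 4.02 CPM in CD44 WT and 42.4 ± 1.19 CPM in CD44 KO (log2 fold change 0.10, adjusted p = 0.708).

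PDE4B is the PDE4 gene linked to inflammatory signalling in leukocytes. PDE4B (ENSG00000184588.17, chromosome 1, 65792514 to 66374579, plus strand) was at 1.11, 1.97 and 1.69 CPM in Hs578T CD44 WT and at 3.13, 4.56 and 4.61 CPM in Hs578T CD44 KO. The groups did not overlap, but counts were low, from 16 to 24 against 39 to 74, and the log2 fold change of 1.38 (standard error 0.387) had an adjusted p of 0.0261. In 5 of 20 alternatives it passed, namely without the filter on low counts (adjusted p = 6.97e-05), with Hs578T fitted alone (0.00576), with a block on replicate number (0.00504) or on consecutive label numbers (0.00483) and at a threshold of 0.05. In MDA-MB-231 the libraries ran from 1.34 to 3.33 CPM in CD44 WT and from 1.69 to 4.05 CPM in CD44 KO and overlapped.

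PDE4D is the longest of these genes and makes many isoforms, which counts per gene cannot separate. PDE4D (ENSG00000113448.18, chromosome 5, 58969038 to 60522120, minus strand) was 15.9 ± 1.65 CPM in Hs578T CD44 WT and 20.3 ± 1.52 CPM in Hs578T CD44 KO (log2 fold change 0.36, adjusted p = 0.288). In MDA-MB-231 it was 25.9 ± 8.72 and 32.1 ± 4.79 CPM (log2 fold change 0.31, adjusted p = 0.370). The changes in the lines differed by 0.04 on the log2 scale, with a 95% interval from -0.51 to 0.60.

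PDE5A, the target of sildenafil, was mainly a gene of Hs578T. PDE5A (ENSG00000138735.15, chromosome 4, 119494395 to 119628991, minus strand) ran from 18.03 to 36.8 CPM in Hs578T CD44 WT and from 17.8 to 26.1 CPM in Hs578T CD44 KO (log2 fold change -0.42, standard error 0.243, adjusted p = 0.289). In MDA-MB-231 it had 3 to 16 counts per CD44 WT library and 21 to 32 per CD44 KO library, 0.912 ± 0.597 against 1.85 ± 0.199 CPM. Those groups did not overlap, yet the log2 fold change of 1.00 (standard error 0.481) did not pass the test (adjusted p = 0.227).

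PDE7A and PDE8A hydrolyse cyclic AMP and are not inhibited by rolipram. PDE7A (ENSG00000205268.10, chromosome 8, 65717510 to 65842322, minus strand) was 39.0 ± 3.94 CPM in Hs578T CD44 WT and 30.6 ± 1.61 CPM in Hs578T CD44 KO. The groups did not overlap, and the log2 fold change of -0.35 (standard error 0.116) did not pass (adjusted p = 0.0575). In MDA-MB-231 it was 11.9 ± 1.37 and 12.2 ± 1.25 CPM (log2 fold change 0.05, adjusted p = 0.891).

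PDE8A rose in MDA-MB-231 CD44 KO cells. PDE8A (ENSG00000073417.14, chromosome 15, 84980440 to 85139145, plus strand) was at 45.7 CPM in replicate 1, 58.2 CPM in replicate 3 and 57.6 CPM in the library without a number of MDA-MB-231 CD44 WT. In MDA-MB-231 CD44 KO it was at 71.8, 83.6 and 89.5 CPM in replicates 1, 2 and 3, above every CD44 WT library. The means were 53.8 ± 7.06 and 81.6 ± 9.03 CPM, which is 0.60 higher on the log2 scale (standard error 0.113, adjusted p = 0.00314).

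In Hs578T, PDE8A was at 49.8, 52.7 and 49.2 CPM in CD44 WT and at 41.2, 46.9 and 49.0 CPM in CD44 KO. The CD44 KO libraries lay just below the CD44 WT libraries, and the log2 fold change was -0.15 (standard error 0.114, adjusted p = 0.459). The change in Hs578T minus that in MDA-MB-231 was -0.75 (standard error 0.160, adjusted p = 0.00802), and PDE8A was the 1 of the 9 members other than PDE3A for which this difference was called, beside 4.12% of all genes. It passed in 9 of 19 alternatives and not with the replicate number as a block (adjusted p = 0.0165). The call in MDA-MB-231 was lost without CD44 KO replicate 2 (adjusted p = 0.0186) or replicate 3 (adjusted p = 0.0161). It was also lost with that line fitted alone (adjusted p = 0.0286) and with the replicate number as a block (adjusted p = 0.0167), while the log2 fold change over all alternatives stayed between 0.49 and 0.68.

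PDE10A, best known in the striatum of the brain, had the largest difference in CPM of the members in Hs578T. PDE10A (ENSG00000112541.13, chromosome 6, 165327287 to 165986603, minus strand) was at 44.9, 49.0 and 54.4 CPM in Hs578T CD44 WT and at 75.3, 86.9 and 76.5 CPM in Hs578T CD44 KO. All CD44 KO libraries lay clearly above the CD44 WT libraries, but the log2 fold change of 0.69 (standard error 0.187) missed the threshold in the fit over all 12 libraries (adjusted p = 0.0218). In 7 of 20 alternatives it passed, among them DESeq2 (adjusted p = 0.00891), Hs578T fitted alone (adjusted p = 0.000498) and the fit without MDA-MB-231 CD44 WT replicate 1 (adjusted p = 0.000660) or without the unnumbered library of that group (adjusted p = 0.00370). In MDA-MB-231 PDE10A was at 8.14, 14.1 and 19.9 CPM in the 3 CD44 WT libraries, a wider spread than the 16.8 to 19.9 CPM of CD44 KO, with which it overlapped (log2 fold change 0.37, adjusted p = 0.320).

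SLFN12, which does not hydrolyse cyclic nucleotides, had close to the same level in CD44 WT and CD44 KO. SLFN12 (ENSG00000172123.12, chromosome 17, 35411060 to 35433283, minus strand) was at 9.78, 8.80 and 8.38 CPM in Hs578T CD44 WT and at 8.91, 9.31 and 8.70 CPM in Hs578T CD44 KO. In MDA-MB-231 it was 24.8 ± 4.95 and 24.6 ± 1.77 CPM. The log2 fold changes were -0.00 in Hs578T (95% interval -0.31 to 0.30) and -0.01 in MDA-MB-231 (95% interval -0.28 to 0.26). In Hs578T CD44 KO, PDE3A (19.3 to 25.4 CPM) and SLFN12 (8.70 to 9.31 CPM) were both counted in every library.

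**Figure D2:**
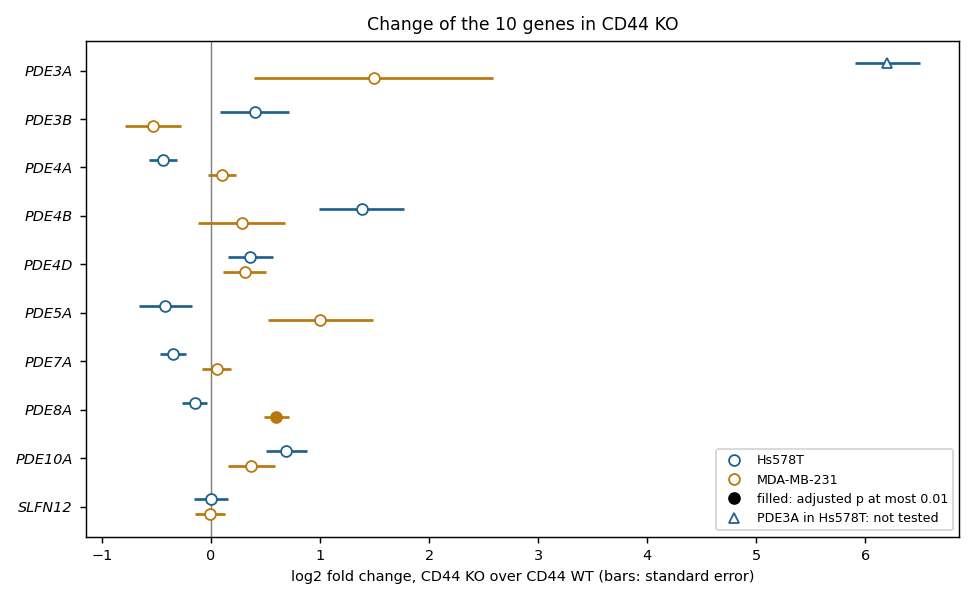
Log2 ratio of CD44 KO to CD44 WT (horizontal axis) for the 10 genes in Hs578T (blue) and MDA-MB-231 (brown), with the standard error as a bar. PDE3A in Hs578T, at 6.20, is drawn as a triangle because it was not tested, and PDE8A in MDA-MB-231, at 0.60, is the filled point that passed the test.

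Dividing by exonic length allows the members to be ranked within a group. In Hs578T CD44 WT, PDE8A (6.41 CPM per kb), PDE4A (5.68) and PDE7A (5.25) had the highest levels, each overlapping its neighbour in the order, and PDE3A the lowest (0.0342 CPM per kb). In Hs578T CD44 KO, PDE10A (6.45 CPM per kb) and PDE8A (5.80) came first and overlapped. PDE3A reached 2.59 CPM per kb there, within the spread of SLFN12 (2.52) and PDE5A (2.23), and above PDE4D (1.24), PDE4B (0.474) and PDE3B (0.273).

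In MDA-MB-231 CD44 WT, SLFN12 (6.97 CPM per kb), PDE8A (6.83) and PDE4A (5.96) overlapped and stood apart from PDE7A (1.61), PDE4D (1.59), PDE10A (1.14) and PDE3B (0.946). In MDA-MB-231 CD44 KO, PDE8A (10.4 CPM per kb) stood above SLFN12 (6.91) and PDE4A (6.38). PDE5A and PDE3A were last in both MDA-MB-231 groups.

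The levels of the 9 phosphodiesterases summed to 25.7 ± 1.94 CPM per kb in Hs578T CD44 WT and 27.4 ± 2.34 in Hs578T CD44 KO, and the groups overlapped. PDE3A made up 0.107% to 0.170% of that sum in the CD44 WT libraries and 8.59% to 10.4% in the CD44 KO libraries, which gives the same counts on another scale. In MDA-MB-231 the sum was 18.4 ± 1.78 CPM per kb in CD44 WT and 23.0 ± 1.36 in CD44 KO, with every CD44 KO library higher. No test was made on these sums. Transcript levels do not measure enzyme activity.

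**Figure D3:**
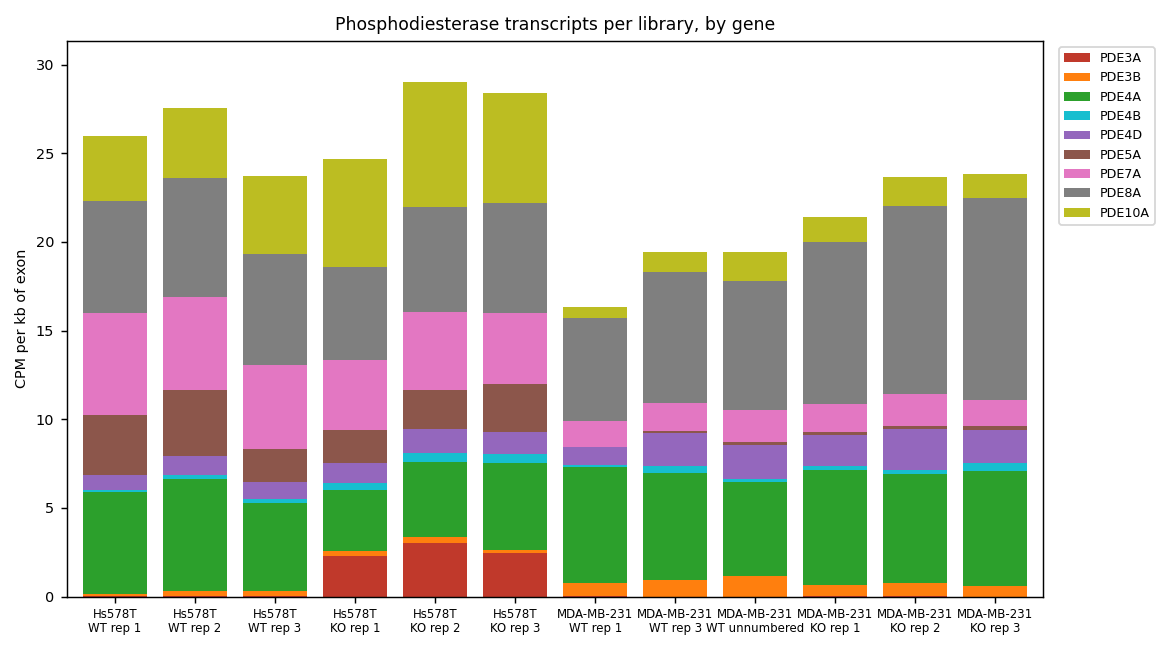
Stacked levels (CPM per kb of exon, vertical axis from 0) of the 9 phosphodiesterase genes in each of the 12 libraries (bars). The red PDE3A segment is 8.59% to 10.4% of the bar in Hs578T CD44 KO and at most 0.170% elsewhere, and PDE8A and PDE4A make up most of each MDA-MB-231 bar.

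Between CD44 WT cells of both lines, 6 of the 9 members other than PDE3A were called (66.7%), a share near the 61.5% of all genes tested. These contrasts use the same CD44 WT libraries as those above. PDE5A was higher in Hs578T by 4.99 on the log2 scale (standard error 0.360, adjusted p = 6.61e-09), PDE10A by 1.82 (0.206, 1.17e-06) and PDE7A by 1.71 (0.125, 8.03e-09). In Hs578T relative to MDA-MB-231, the log2 difference was -2.16 for PDE3B (standard error 0.291, adjusted p = 7.19e-06), -1.46 for SLFN12 (0.149, 3.38e-07) and -0.71 for PDE4D (0.205, 0.00595). PDE4A, PDE4B and PDE8A were not called, with 95% intervals of the log2 difference from -0.32 to 0.18, from -1.19 to 0.47 and from -0.31 to 0.13.

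Over the 12 libraries, the genes whose log2 CPM followed PDE3A most closely among 15835 others included LINC01097 (Pearson r = 0.993), KCND2 (0.992), CCDC181 (0.990) and ENSG00000224149 (0.988). KCND2 encodes a voltage-gated potassium channel. These 4 genes had no counts in MDA-MB-231, means of 0.0556 to 0.134 CPM in Hs578T CD44 WT and means of 1.51 to 5.63 CPM in Hs578T CD44 KO. The 12 points are 3 libraries of each of 4 groups, so these values mostly compare group means. PDE3A was chosen on its Hs578T counts. Both PDE3A and these 4 genes passed the filter on low counts only through Hs578T CD44 KO, so each r is a description and carries no test. Of the other members, PDE10A was the closest (r = 0.81, rank 685) and PDE4A the farthest (r = -0.84, rank 15373).

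Around PDE3A, 32 other genes of the table lay within 1 Mb of either end, of which 12 were tested. Of these, 1 was called in Hs578T (8.33%), a share near the 7.51% of all genes. It was SPX, which encodes the peptide hormone spexin, whose counts there were 137 (CD44 WT) and 570 (CD44 KO; log2 fold change 1.97, adjusted p = 0.000225). None was called in MDA-MB-231. Of those that missed the threshold in Hs578T, SLCO1B3, an organic anion transporter gene, had 32 and 83 counts (log2 fold change 1.29, adjusted p = 0.0119), PYROXD1, an oxidoreductase gene, had 792 and 620 (-0.43, 0.0207), and the noncoding gene ENSG00000255910 had 66 and 137 (log2 fold change 0.98, adjusted p = 0.0481). The antisense gene PDE3A-AS1, counted apart because reads were assigned by strand, had 0 counts in Hs578T CD44 WT and 3 in Hs578T CD44 KO. ENSG00000256663, inside the span of PDE3A on its strand, had 359 and 344 counts (log2 fold change -0.11, adjusted p = 0.729).

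**Figure D4:**
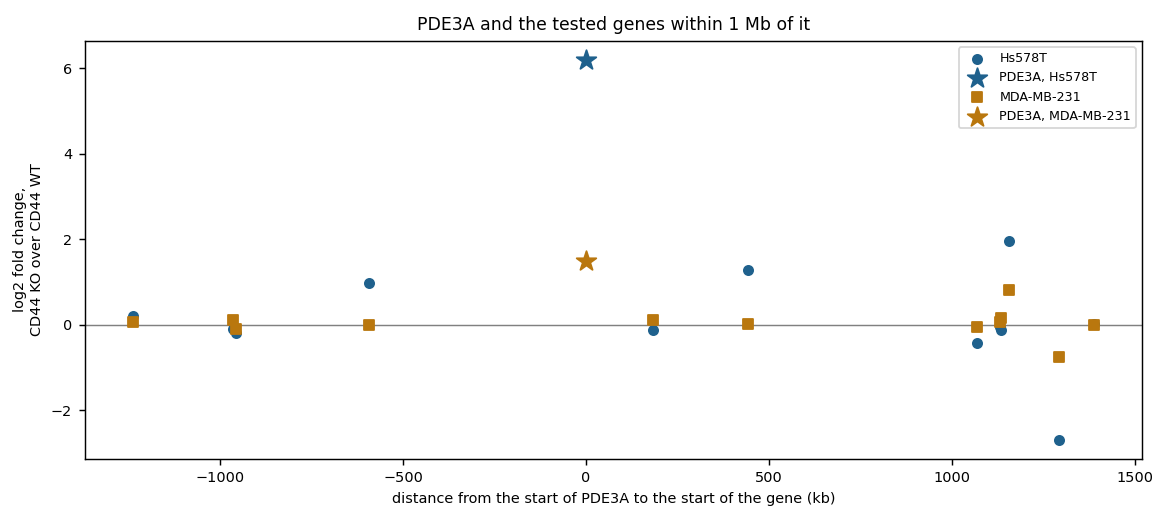
Log2 ratio of CD44 KO to CD44 WT (vertical axis) for PDE3A (stars) and the 12 tested genes within 1 Mb of it, by the distance in kb between gene starts (horizontal axis), in Hs578T (blue) and MDA-MB-231 (brown). PDE3A in Hs578T stands at 6.20 and SPX at 1.97, while ENSG00000256615, at -2.68, rests on 2 counts against 0.

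The other genes of the pathway were taken from 11 lists that hold 114 genes, of which 80 were tested. In Hs578T 10 of the 80 were called (12.5%), 6 higher and 4 lower, and in MDA-MB-231 9 (11.2%), 7 higher and 2 lower. Over all genes tested, 3.64% were called higher and 3.86% lower in Hs578T, and 1.97% higher and 2.65% lower in MDA-MB-231. Of the 80, 4 were over the count minimum in 1 group only, PDE6A, PDE8B, GUCY1A1 and GUCY1A2, and the last 3 were called in the line of that group. A gene that passes the filter through 1 group has to be higher there, so these are given as values. Over the other 76 genes the calls were 9 in Hs578T (11.8%) and 7 in MDA-MB-231 (9.21%), beside 6.68% and 4.49% of the 15277 genes over the minimum in more than 1 group. The 7 still include SLFN13, which passed the filter only with its MDA-MB-231 CD44 KO libraries. Of the 19 calls, 7 held in all 20 alternatives, and the fewest were 7 for GNAL and 11 for GUCY1A2. As a median, the log2 fold change of the 80 came to -0.01 for Hs578T and 0.14 for MDA-MB-231.

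Of 9 other phosphodiesterases tested, 0 were called in Hs578T, beside 7.51% of all genes, and 1, PDE8B, in MDA-MB-231, beside 4.62%. PDE8B was over the minimum of 1 CPM in MDA-MB-231 CD44 KO alone, so it had to be higher there and is given as values. This second PDE8 enzyme averaged 0.476 ± 0.259 CPM in MDA-MB-231 CD44 WT and 2.89 ± 0.839 CPM in CD44 KO (log2 fold change 2.55, standard error 0.462). In Hs578T it was 0.324 ± 0.178 and 0.507 ± 0.300 CPM. PDE6D, a prenyl-binding protein first found with the photoreceptor enzyme, had the highest level per kb of that list and was called in neither line.

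Among the enzymes that make cyclic nucleotides, the 4 adenylyl cyclase genes tested were called in neither line, the highest per kb being ADCY3 (114 and 92.0 CPM in Hs578T, log2 fold change -0.31, adjusted p = 0.0772). Of 6 guanylyl cyclase and natriuretic peptide receptor genes, 2, NPR2 and GUCY1A1, were called lower in Hs578T, beside 3.86% of all genes. NPR2, the receptor cyclase for C-type natriuretic peptide, fell from 6.56 ± 2.57 to 0.372 ± 0.0528 CPM (log2 fold change -4.12, adjusted p = 2.40e-05). The soluble cyclase subunit GUCY1A1 was over the minimum in Hs578T CD44 WT alone, so it had to be lower in CD44 KO and is given as values. It was 3.35 ± 1.77 and 0.650 ± 0.188 CPM (log2 fold change -2.37). In MDA-MB-231, NPR2 was 8.33 ± 3.40 and 7.51 ± 1.81 CPM and the subunit gene GUCY1A2, over the minimum in CD44 KO of that line alone, was 0.371 ± 0.184 and 1.77 ± 0.502 CPM. For NPR2 the difference between the lines was called (log2 -3.98, adjusted p = 0.000368), and for GUCY1A1 and GUCY1A2 no test of it is given.

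Of 9 genes for protein kinase A subunits and inhibitors, 2 rose in Hs578T, and 1 rose and 1 fell in MDA-MB-231. PRKAR2B, a regulatory subunit, went from 1.13 ± 0.726 to 6.52 ± 1.24 CPM in Hs578T (log2 fold change 2.54, adjusted p = 9.66e-05), and the inhibitor PKIA from 2.99 ± 1.25 to 8.29 ± 0.602 CPM (1.49, 0.000547). PRKACB, a catalytic subunit, went from 14.2 ± 4.89 to 38.3 ± 3.64 CPM in MDA-MB-231 (1.43, 0.000150) and stood at 40.3 ± 2.25 and 39.4 ± 4.11 CPM in Hs578T. The inhibitor PKIG fell in MDA-MB-231 (log2 fold change -0.54, adjusted p = 0.00451). The difference between the lines was called for PRKAR2B and PRKACB and not for PKIA and PKIG.

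Of 7 genes for protein kinase G, EPAC and other direct effectors, PRKG2 rose in Hs578T (log2 fold change 1.22, adjusted p = 0.00363) and RAPGEF3, which encodes an EPAC protein, fell in MDA-MB-231 (-0.93, 0.00335). Of 12 A-kinase anchoring proteins, AKAP12 rose in MDA-MB-231 from 49.1 ± 6.28 to 91.4 ± 10.8 CPM (0.90, 0.00249), and in Hs578T it had a log2 fold change of 0.84 that did not pass (adjusted p = 0.0296). Of 12 genes for G proteins and receptors that control adenylyl cyclase, 2 were called in Hs578T and 0 in MDA-MB-231. GNAI1, an inhibitory alpha subunit, rose from 0.328 ± 0.158 to 5.91 ± 0.269 CPM (4.09, 1.98e-07), and GNAL, a stimulatory one, fell from 3.38 ± 0.774 to 1.65 ± 0.376 CPM (-1.01, 0.00782). The GNAL call was lost with Hs578T fitted alone (adjusted p = 0.0230), with the block on replicate number (0.0173) or on consecutive label numbers (0.0161), and in 10 of 12 fits without a single library (up to 0.0503). The difference between the lines was called for GNAI1 and PRKG2 and not for GNAL, RAPGEF3 and AKAP12. The stimulatory GNAS, highest per kb in that list, had log2 fold changes of 0.13 and 0.15 and was called in neither line.

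Downstream, 2 of 8 CREB factors and coactivators rose in MDA-MB-231, CREM (log2 fold change 0.64, adjusted p = 0.00182) and CRTC3 (0.54, 0.00279), and none was called in Hs578T. Of 9 genes that respond quickly to cyclic AMP, RGS2, a regulator of G protein signalling, rose in Hs578T (3.61 to 5.25 CPM in CD44 WT and 9.71 to 13.5 CPM in CD44 KO, log2 fold change 1.43, adjusted p = 9.66e-05), and PPARGC1A, a coactivator of mitochondrial genes, fell from 7.47 ± 2.91 to 2.11 ± 0.431 CPM (-1.81, 0.00197). None of the 9 was called in MDA-MB-231, and the difference between the lines was called for both genes. Neither of the 2 export transporters tested, ABCC4 and ABCC5, was called.

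Of the Schlafen family, 2 genes were tested beside SLFN12. SLFN5 rose in Hs578T from 29.7 ± 5.01 to 94.8 ± 14.2 CPM (log2 fold change 1.68, adjusted p = 0.000139). SLFN13 averaged 1.21 ± 0.435 CPM in MDA-MB-231 CD44 WT and 4.28 ± 0.910 CPM in CD44 KO (log2 fold change 1.80). Before TMM scaling, only CD44 WT replicate 3 of that line (21 counts) was over 1 CPM outside MDA-MB-231 CD44 KO. The filter needed 2 libraries, so SLFN13 passed only with its CD44 KO libraries and is given as values. For SLFN5 the difference between the lines was not called, and for SLFN13 no test of it is given. The folds of 7 called genes rest on few reads in the lower group. Summed over its 3 libraries, GUCY1A2 had 13 counts, PDE8B 17 and SLFN13 43 in MDA-MB-231 CD44 WT, GNAI1 had 13 and PRKAR2B 43 in Hs578T CD44 WT, and NPR2 had 15 and GUCY1A1 26 in Hs578T CD44 KO.

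**Figure D5:**
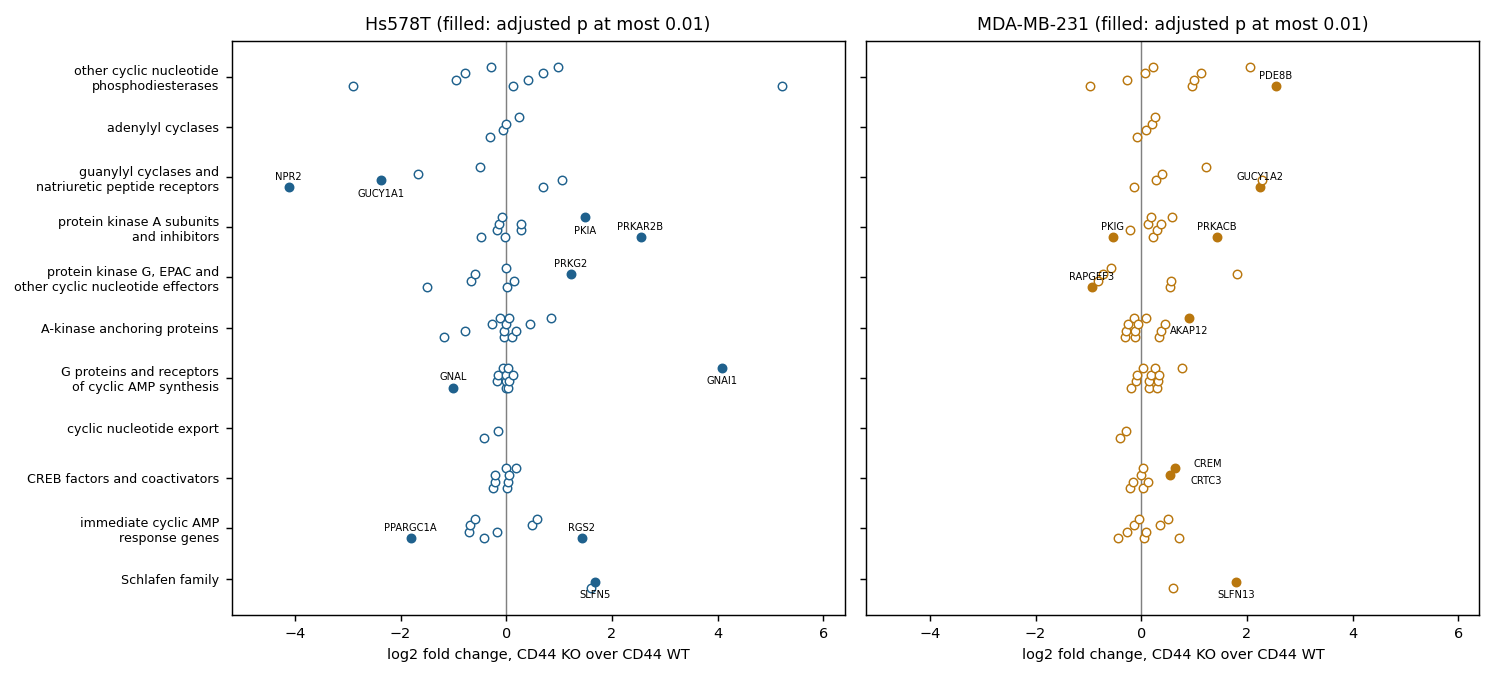
Log2 ratio of CD44 KO to CD44 WT (horizontal axes) for the 80 tested genes of 11 pathway lists (rows) in Hs578T (left) and MDA-MB-231 (right), with filled, named points at an adjusted p of at most 0.01. There are 10 filled points in Hs578T, 6 of them to the right of 0, and 9 in MDA-MB-231, 7 of them to the right of 0. PDE8B, GUCY1A1 and GUCY1A2 were over the count minimum in 1 group only, and SLFN13 passed the filter only with its MDA-MB-231 CD44 KO libraries. The open point at 5.21 in Hs578T is PDE9A, which was not called.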

How the data were processed

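RNA was measured in 12 libraries, 3 per group. Per the file header and the submitters' processing notes, the authors aligned 50 bp read pairs with HISAT2 2.1.0 to GRCh38 and deposited whole-number counts per gene from featureCounts 1.6.2 on GENCODE 28, counting pairs with both ends aligned, a mapping quality of at least 10 and the stranded setting. Multimapping and ambiguous pairs were not counted under the default setting. The deposited counts are not normalized. From them, genes over 1 CPM in at least 2 libraries and of at least 300 nt were fitted in R 4.3.3 with edgeR 4.0.16 (TMM, quasi-likelihood F test, 4 group means) with calls at p of at most 0.01 after Benjamini-Hochberg adjustment. The standard error is the log2 fold change divided by the square root of F. Library totals, from 10257586 to 19725543, limit precision for low genes, and a counting interval covers counting error only. Symbols were matched to 57754 of the 58381 gene identifiers.

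The members and the gene lists were chosen with earlier results of these data known. Named genes were every member, each listed pathway gene called in either line, the gene with most CPM per kb in a list, those among the 5 genes most correlated with PDE3A that are reported here, and genes within 1 Mb of it. Some genes are not reported here. PDE9A, ENSG00000255910, ENSG00000256663, ENSG00000256615, PYROXD1 and PDE6A were picked out after their values were seen. Column names gave 1 MDA-MB-231 CD44 WT library no replicate number. The fit was tested on simulated data. Alternatives were DESeq2 1.42.0, RLE factors, other filters, each line alone, a threshold of 0.05, replicate blocks and each library left out. No protein sequences were used here.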

Additional observations from a re-analysis of the deposited data

Results flagged for a closer look

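PDE8A was flagged because CD44 KO moved it differently in each line by the test of the difference itself. Its log2 change of -0.15 in Hs578T, against 0.60 in MDA-MB-231, left a difference of -0.75 (95% interval -1.06 to -0.43, adjusted p = 0.00802, edgeR). The libraries of both Hs578T groups, at 41.2 to 52.7 CPM, lay near those of MDA-MB-231 CD44 WT, at 45.7 to 58.2 CPM, and the MDA-MB-231 CD44 KO libraries lay at 71.8 to 89.5 CPM. The difference passed the threshold in 9 of 19 alternatives and kept its sign in all 19, from -0.83 to -0.64.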

How the results depend on the processing

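The log2 fold change of PDE3A in Hs578T stayed between 6.07 and 6.32 in all 20 alternatives. In MDA-MB-231 it was -0.01 with the replicate number as a block, which leaves out the library without a number, and had no value with that line fitted alone. Calls among the other 9 members in Hs578T, 0 as reported, were 1 with DESeq2, 2 without the filter, 2 with the line fitted alone, 3 at an adjusted p of 0.05, 2 with either replicate block (replicate number or consecutive label numbers), and 0 to 1 without single libraries. Calls among the members in MDA-MB-231, 1 as reported, were 0 with the line alone and with the block on replicate number, and 0 to 1 without single libraries. The difference between the lines, called for 1 member, was called for 2 without the filter, 0 with the block on replicate number and 0 to 1 without single libraries. Between CD44 WT of the lines, 5 to 6 members were called throughout. Same-numbered libraries did not deviate together (correlations from -0.10 to 0.16), and those in sets of consecutive label numbers correlated between 0.01 and 0.16, not all above 0.1, so neither is taken as pairs.

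All genes called in Hs578T, 1189, became 1971 without the filter, 2253 at 0.05 and 605 to 1685 without single libraries. In MDA-MB-231 the 731 became 1138 with DESeq2, 1353 without the filter, 315 with the line alone, 1518 at 0.05, 190 with the block on replicate number and 355 to 763 without single libraries. Pathway genes called, 10 in Hs578T and 9 in MDA-MB-231, were 22 and 15 without the filter, 19 and 14 at 0.05, and 1 in MDA-MB-231 with the block on replicate number. Without single libraries they were 6 to 16 in Hs578T and 3 to 11 in MDA-MB-231. Of the 19 pathway calls 7 held in all 20 alternatives: NPR2, PRKAR2B, PKIA, GNAI1, RGS2 and SLFN5 in Hs578T and PRKACB in MDA-MB-231. Small changes near 0 turned sign. SLFN12 in Hs578T was 0.00 with DESeq2 and with RLE factors, 0.02 without the filter and 0.01 with at least 10 counts, and in MDA-MB-231 0.01 without the filter and 0.09 with the block on replicate number. Without single libraries it lay between -0.05 and 0.06 in Hs578T and between -0.17 and 0.07 in MDA-MB-231, where PDE4B ran from -0.15 to 0.86 and PDE7A from -0.04 to 0.14. The causes were not tested. The paper's methods word the length filter as keeping genes shorter than 300 nt, which was read here as a minimum of 300 nt. The literal form was not run, since every member is longer.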
